A study of Mus musculus with 9 samples.

Results

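Chemokines are small secreted or membrane-held proteins that guide the movement of leukocytes, and endothelial cells (ECs) both make them and display them on the vessel wall. Most act through receptors coupled to G proteins, while the atypical receptors (Ackr genes) bind chemokines without that coupling and instead transport, store or remove them. In the lung, endothelial chemokines and their receptors take part in the recruitment of leukocytes and in the homing of tumour cells, and many chemokine genes are switched on by interferons or by NF-kB. Here 53 mouse chemokine and chemokine receptor genes were described in ECs of metastatic and healthy lungs, out of 18193 genes with a value. They were all genes on the array whose symbol follows the standard chemokine names (Ccl, Cxcl, Cx3cl and Xcl for ligands, Ccr, Cxcr, Cx3cr, Xcr and Ackr for receptors) and that had a probe set assigned to that gene alone. No measured value chose them. They comprised 33 ligand genes and 20 receptor genes.

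The ECs were sorted from whole lungs of female NSG mice, an immunodeficient strain without mature lymphocytes or natural killer cells, as cells positive for CD31 and negative for leukocyte, epithelial, stromal and tumour cell markers. In 3 groups of 3 arrays, the lungs were DC101 metastatic, IgG metastatic or IgG healthy. Metastatic lungs came from mice injected in the tail vein, at an age of 6 to 8 weeks, with MDA-MB-231-LM2, human breast cancer cells of a line selected for growth in the lung. Healthy lungs came from mice of matched age without tumour cells. DC101, which is a rat antibody against mouse VEGFR2 and blocks VEGF signalling, was given at 40 mg per kg on days 21 and 24 after injection. The IgG metastatic group received rat control IgG on the same days, and both metastatic groups were harvested on day 25. The IgG healthy group also received rat control IgG, but no days are listed for it. The model is limited to 1 human tumour cell line and to a host that has macrophages and neutrophils but lacks the lymphocytes that several chemokines attract. Whether each of these biological replicates came from its own mouse is not stated. The p-values therefore cover only the spread among these samples, which may differ from that between single mice.

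Values were RMA values on the log2 scale, a normalization that equalises the arrays, so a step of 1 is a 2-fold change. A gene was called when its adjusted p was under 0.05 in limma with Benjamini-Hochberg adjustment over all 18193 genes. Levels of different genes are not comparable, because each comes from its own probe set. The endothelial list of 12 genes had a mean log2 level of 13.51 to 13.67 in DC101 metastatic, 13.59 to 13.60 in IgG metastatic and 13.62 to 13.66 in IgG healthy arrays. The epithelial sorting marker Epcam lay between 7.10 and 7.48 in all 9 arrays. The surfactant gene Sftpc, the highest of the 10 epithelial genes listed, had 11.84 to 13.36 in DC101 metastatic, 11.29 to 12.19 in IgG metastatic and 12.89 to 13.29 in IgG healthy arrays. Cdh1, another of them, had 6.28 to 8.17, 6.54 to 6.99 and 7.67 to 8.41 in the same order of groups. Of the 10 epithelial genes 6 were called lower in IgG metastatic over healthy lungs, Sftpc by -1.36 (adjusted p = 0.0207). Replicates correlated with r of 0.983 to 0.987, 0.988 to 0.989 and 0.988 to 0.991 in the same order of groups. For Gapdh, the 3-prime minus 5-prime probe set difference, which rises with RNA degradation, was 0.35 to 0.60 in DC101 metastatic, 0.47 to 0.57 in IgG metastatic and 0.69 to 0.77 in IgG healthy arrays. It therefore moved with every comparison against healthy lungs, and its part in the results was not tested. In sorted bulk samples, fewer cells of a type and less RNA per cell cannot be told apart.

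The promoters of 4 chemokine genes that were called, and of 2 close relatives that were not, are shown first. Motifs of the interferon and NF-kB pathways can be set beside the changes, but their part in the changes was not tested. Of the 53 genes, 40 had a promoter in the RefSeq table of the mouse assembly GRCm38.p6, and the 250 bases before the annotated start are given here, 5′ to 3′ on the gene's own strand. Capitals mark each match, on either strand, to the ISRE core GAAANNGAA bound by interferon regulatory factors, the NF-kB core GGGANNTTC or the TATA box TATAAA. Cxcl10 (chr5:92348890-92349139, minus strand) and Cxcl9 (chr5:92328080-92328329, minus strand) are the interferon-induced ligands. Cxcl1 (chr5:90890995-90891244), Cxcl2 (chr5:90903649-90903898) and Cxcl3 (chr5:90785851-90786100), all on the plus strand, attract neutrophils. Cx3cl1 (chr8:94771930-94772179, plus strand) encodes the membrane-anchored fractalkine.
Cxcl10: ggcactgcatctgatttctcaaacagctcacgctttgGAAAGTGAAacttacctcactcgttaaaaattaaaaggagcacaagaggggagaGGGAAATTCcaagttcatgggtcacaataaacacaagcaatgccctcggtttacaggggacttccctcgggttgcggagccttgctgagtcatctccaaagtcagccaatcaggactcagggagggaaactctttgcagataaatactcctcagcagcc
Cxcl9: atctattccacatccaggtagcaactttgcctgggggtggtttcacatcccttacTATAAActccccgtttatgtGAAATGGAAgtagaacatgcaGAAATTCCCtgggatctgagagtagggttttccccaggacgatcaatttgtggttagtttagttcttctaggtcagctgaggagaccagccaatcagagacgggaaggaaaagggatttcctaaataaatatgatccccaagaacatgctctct
Cxcl1: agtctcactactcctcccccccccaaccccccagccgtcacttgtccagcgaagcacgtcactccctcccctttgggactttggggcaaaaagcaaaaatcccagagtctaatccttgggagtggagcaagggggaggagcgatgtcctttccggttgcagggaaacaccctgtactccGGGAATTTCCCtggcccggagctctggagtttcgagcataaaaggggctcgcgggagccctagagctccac
Cxcl2: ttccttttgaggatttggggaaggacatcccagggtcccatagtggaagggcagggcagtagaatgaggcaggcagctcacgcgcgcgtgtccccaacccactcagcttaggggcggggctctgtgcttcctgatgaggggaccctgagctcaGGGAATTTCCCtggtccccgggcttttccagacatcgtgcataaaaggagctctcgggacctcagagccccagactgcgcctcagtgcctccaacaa
Cxcl3: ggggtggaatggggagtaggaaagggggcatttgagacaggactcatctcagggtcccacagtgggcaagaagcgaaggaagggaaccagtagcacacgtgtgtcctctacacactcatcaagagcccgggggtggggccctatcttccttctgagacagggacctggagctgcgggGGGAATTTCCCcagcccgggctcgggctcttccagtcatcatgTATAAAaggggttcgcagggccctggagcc
Cx3cl1: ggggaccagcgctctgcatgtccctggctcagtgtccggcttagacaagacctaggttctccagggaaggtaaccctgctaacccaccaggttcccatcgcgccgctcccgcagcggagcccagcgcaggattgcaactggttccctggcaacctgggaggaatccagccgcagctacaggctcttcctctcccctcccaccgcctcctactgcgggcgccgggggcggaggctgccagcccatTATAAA
The promoters of Cxcl10 and Cxcl9 each held an ISRE core and an NF-kB core. In Cxcl10 the ISRE core began 213 and the NF-kB core 159 bases before the start, and in Cxcl9 they began 175 and 154 bases before it, with the NF-kB core on the other strand. Cxcl1, Cxcl2 and Cxcl3 shared the letters GGGAATTTCCC, which hold overlapping NF-kB cores on both strands. Cx3cl1 held a TATA box in the last bases of the window and no match to the ISRE or NF-kB core, which says only that these letters were not in this window. Among all 27025 promoters of the table, 7.16% held an ISRE core, 3.17% an NF-kB core and 13.0% a TATA box, against 6 (15.0%), 8 (20.0%) and 12 (30.0%) of the 40 chemokine and receptor promoters. The interferon-gamma motif GAS (TTCNNNGAA) was in 7.18% of all promoters and in 3 of the 40. Of the 7 promoters of genes called in any comparison, 2 held an ISRE core, 3 an NF-kB core, 4 a TATA box and 0 a GAS motif, against 4, 5, 8 and 3 of the 33 promoters of genes not called. These are matches of letters and not shown binding sites. The promoters of Ccl5 and Cxcl11 are not shown.

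The comparison of IgG metastatic with IgG healthy lungs asked which of these genes change in ECs when metastases have grown. In metastatic lungs 7 of the 53 genes rose, namely Cxcl10, Ackr1, Cxcl13, Cxcl9, Ccl5, Cxcl1 and Cxcr4, and 1 fell, Cx3cl1. Over all genes 3.93% were called higher and 2.60% lower. The other 45 genes were not called. The 2 groups were fully apart for 11 of the 53 genes in the higher direction and for 4 in the lower, where 13.0% and 14.7% of all genes were. The members had a median log2 change of 0.03, against -0.02 over all genes, with 27 of them above 0 and 26 below. The count of higher genes was 4 without IgG metastatic replicate 3, IgG healthy replicate 1 or IgG healthy replicate 3, and 3 without moderation of the variances, while Cx3cl1 remained called in each of these fits. Of the 5 chemokines in GSP58, a secreted-protein signature that the study selected at week 3 of the same model, 4 were called higher, with a median change of 1.53. Of the 5 chemokines in its inflammation signature 3 were called higher, with a median of 1.18. The study chose these lists in this model, so their direction is not independent evidence. For GSP58 it used a looser adjusted threshold together with a fold change cutoff, unlike the calls here.

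**Figure D1:**
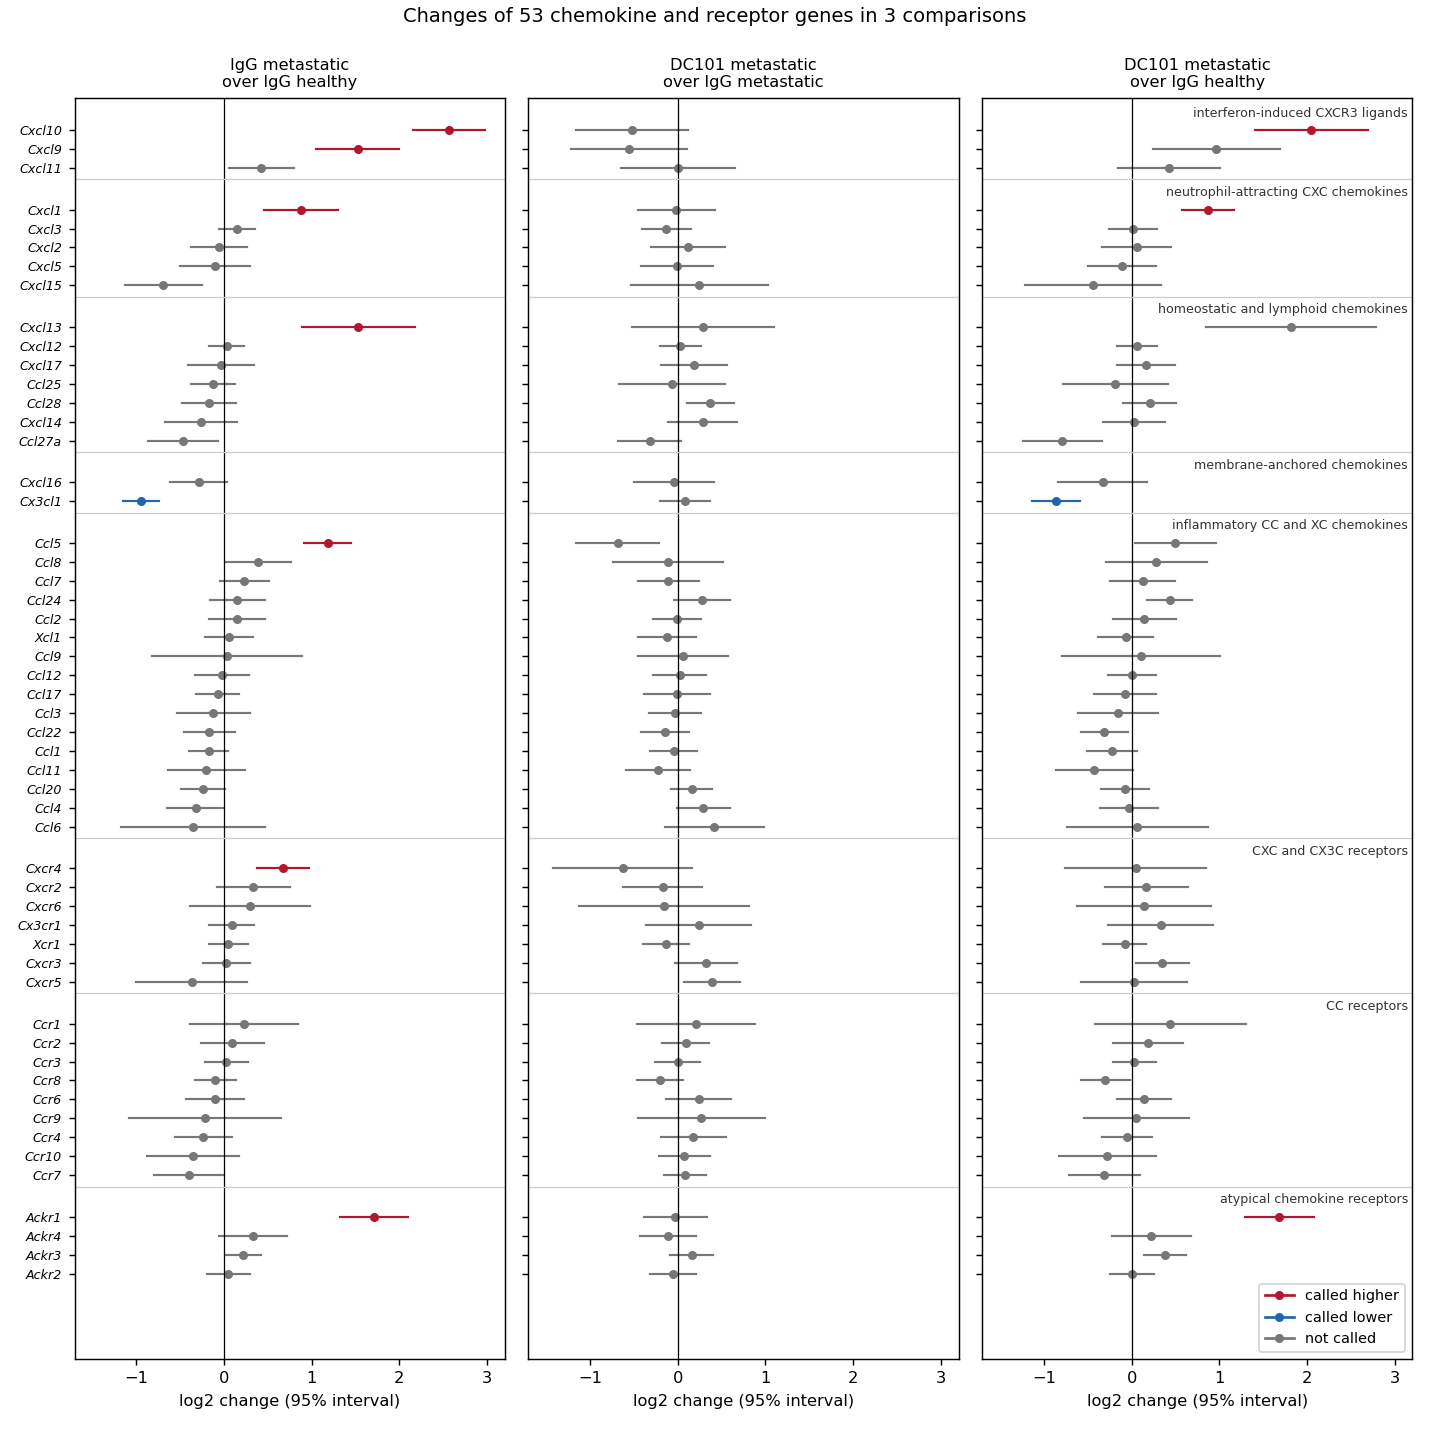
Log2 changes (horizontal axes) of the 53 genes (vertical axis, in 8 blocks by role) in 3 comparisons, with points for the estimate of limma, lines for its 95% interval and colours for the call. Called genes stand out in the left and right panels, where metastatic lungs are set against healthy ones, and no gene is coloured in the middle panel, where DC101 is set against IgG.

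Cxcl10, which attracts cells bearing the receptor CXCR3 and is a classical interferon target, had the largest rise. Its values were 10.35, 11.44 and 10.75 in DC101 metastatic, 11.14, 11.32 and 11.64 in IgG metastatic and 8.77, 8.55 and 9.07 in IgG healthy arrays. All 6 metastatic arrays lay above all 3 healthy ones. The log2 change of IgG metastatic over IgG healthy was 2.57 (SE 0.17, a 5.93-fold rise, adjusted p = 0.000718). Cxcl9, the related ligand that responds mainly to interferon gamma, stood at 8.00, 8.26 and 7.13 in DC101 metastatic, 8.58, 8.15 and 8.33 in IgG metastatic and 6.50, 7.21 and 6.77 in IgG healthy arrays. IgG metastatic and healthy arrays were apart, and the lowest DC101 array fell within the healthy range. Cxcl9 rose by a log2 change of 1.53 in IgG metastatic lungs (SE 0.20, a 2.88-fold rise, adjusted p = 0.00718), but its other, dimmer probe set changed by only 0.30 (adjusted p = 0.276 over all probe sets). With the mean of both probe sets the change of Cxcl9 was 0.91 (adjusted p = 0.0113), and without moderation of the variances its call was lost (adjusted p = 0.0789). Cxcl11, the remaining CXCR3 ligand, had values of 6.43, 7.50 and 6.88 in DC101 metastatic, 7.23, 6.62 and 6.97 in IgG metastatic and 6.45, 6.50 and 6.58 in IgG healthy arrays. Its change of 0.43 between IgG metastatic and healthy lungs (SE 0.16, adjusted p = 0.177) did not pass the test, although the arrays were apart by a small margin. The other, dimmer probe set of Cxcl11 changed by 0.02 with overlapping arrays (adjusted p = 0.951 over all probe sets). In the C57BL/6J reference annotation Cxcl11 is listed as a transcribed pseudogene, and its values lay near the low end of the scale, where the lowest gene mean was 5.49.

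The receptor of these ligands, Cxcr3, is a receptor of lymphocytes and had values of 7.59, 7.86 and 7.44 in DC101 metastatic, 7.11, 7.45 and 7.36 in IgG metastatic and 7.31, 7.23 and 7.28 in IgG healthy arrays. The change of 0.03 between IgG metastatic and healthy lungs (95% interval -0.23 to 0.29) was not called. The lymphocyte list of 8 measured genes had 0 called genes by limma in each comparison, with 0 at an unadjusted p under 0.05, and its mean log2 level was 7.16 to 7.19 in DC101 metastatic, 7.07 to 7.10 in IgG metastatic and 7.05 to 7.36 in IgG healthy arrays.

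**Figure D2:**
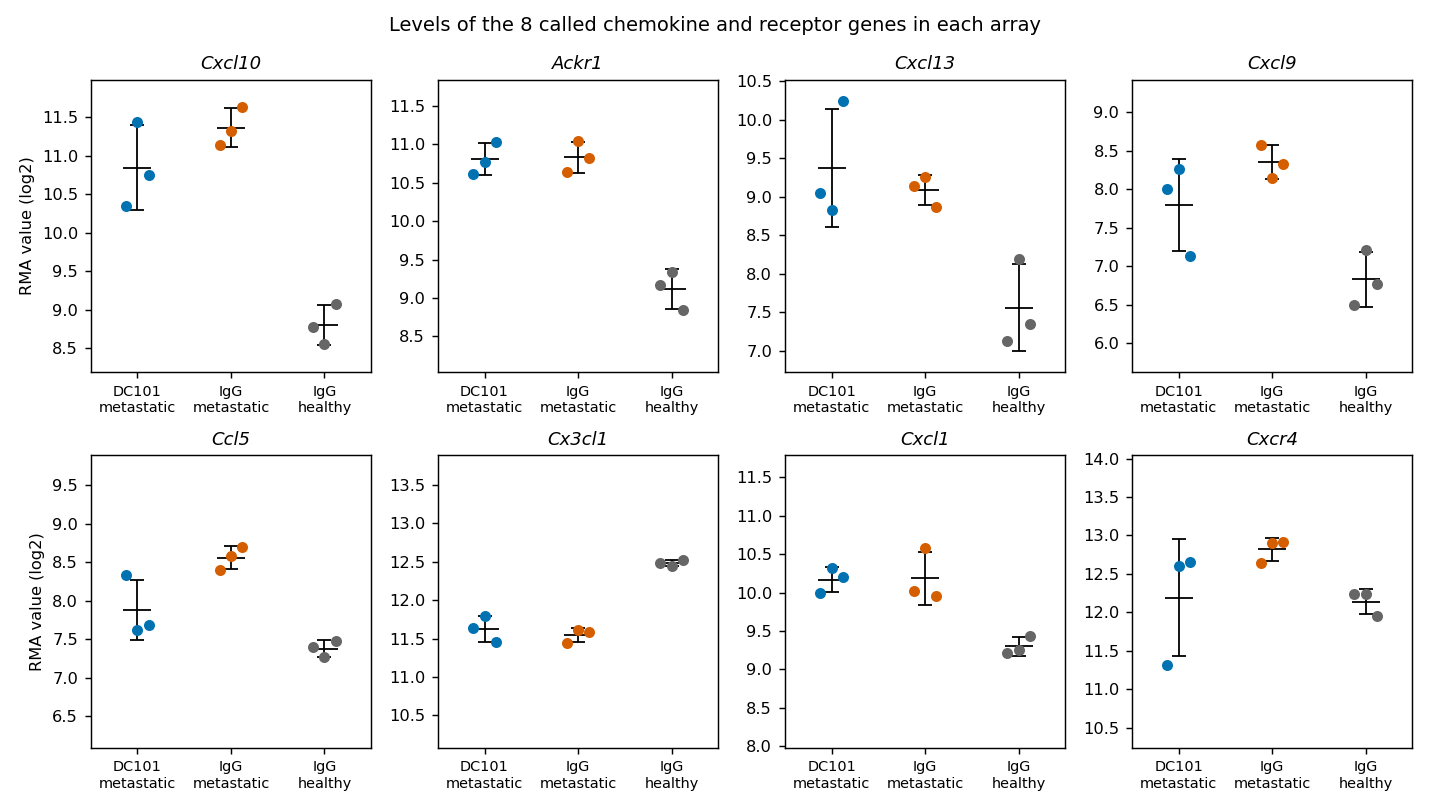
RMA values on the log2 scale (vertical axes) of the 8 called genes in DC101 metastatic, IgG metastatic and IgG healthy lungs, with coloured points for single arrays, horizontal bars for the mean and whiskers for the SD of 3 arrays. Each panel spans the same number of log2 units, and healthy arrays lie below the IgG metastatic ones for every gene but Cx3cl1, where they lie above, between 12.45 and 12.52.

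Among chemokines that attract neutrophils through CXCR2, Cxcl1 rose and its close relatives Cxcl2 and Cxcl3 did not pass the test. Cxcl1 had values of 9.99, 10.32 and 10.20 in DC101 metastatic, 10.01, 10.58 and 9.96 in IgG metastatic and 9.21, 9.26 and 9.44 in IgG healthy arrays. Every metastatic array was above every healthy one. The change of IgG metastatic over healthy was 0.88 (SE 0.18, 1.85-fold, adjusted p = 0.0325), while its other probe sets changed by 0.72 and 0.74 and did not pass (adjusted p = 0.0659 and 0.0746 over all probe sets). The call was lost without IgG metastatic replicate 1 (adjusted p = 0.0598) or 3 (0.0535), without IgG healthy replicate 1 (0.112), 2 (0.0964) or 3 (0.062), without moderation of the variances (0.143) and after removal of the probe set types prone to cross-hybridisation (change 0.72, adjusted p = 0.0519). A fit with the replicate number as a block also lost the call. Cxcl2 had values of 8.42, 8.68 and 8.08 in DC101 metastatic, 8.32, 8.04 and 8.47 in IgG metastatic and 8.18, 8.39 and 8.43 in IgG healthy arrays, with overlap of all groups. Its change between IgG metastatic and healthy lungs was -0.06 (95% interval -0.38 to 0.26). Cxcl3, named as the relative whose promoter is shown above, ran from 5.71 to 6.08 over all 9 arrays, near the low end of the scale, with a change of 0.15 (95% interval -0.06 to 0.36). Of these 3 genes, whose promoters share the NF-kB letters, Cxcl1 alone was called. The part of these letters in the changes was not tested.

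The nearest gene that was not called in this comparison was Cxcl15, a chemokine made by lung epithelium, which is named here after its values were seen. Cxcl15 had values of 8.68, 9.80 and 8.52 in DC101 metastatic, 8.47, 9.05 and 8.75 in IgG metastatic and 9.17, 9.49 and 9.67 in IgG healthy arrays. The change of IgG metastatic over healthy was -0.69 (SE 0.18, adjusted p = 0.0788), and that of its other probe set was -1.10 (adjusted p = 0.0195 over all probe sets). Lung epithelial markers moved the same way, with 6 of 10 called lower and 0 called higher in IgG metastatic lungs. Their mean log2 level was 8.74 to 9.90 in DC101 metastatic, 8.76 to 9.04 in IgG metastatic and 9.45 to 10.02 in IgG healthy arrays, and their part in the change of Cxcl15 was not tested.

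Cxcl13, which draws B cells into lymphoid tissue, rose the most among homeostatic and lymphoid chemokines. Its values were 9.05, 8.82 and 10.25 in DC101 metastatic, 9.14, 9.26 and 8.87 in IgG metastatic and 7.13, 8.20 and 7.34 in IgG healthy arrays. The healthy arrays lay below all others, and the highest value was that of DC101 replicate 3. The change of IgG metastatic over healthy was 1.53 (SE 0.27, 2.89-fold, adjusted p = 0.0212), and the other probe set of Cxcl13 gave 1.95 (adjusted p = 0.0276 over all probe sets). The call was lost without IgG metastatic replicate 1 (adjusted p = 0.0684), 2 (0.0711) or 3 (0.0567) and without IgG healthy replicate 1 (0.0648) or 3 (0.0646), and without moderation of the variances (0.129). Cxcl12, the ligand of Cxcr4 and a main chemokine of stromal and endothelial cells, had 13.56, 13.62 and 13.67 in DC101 metastatic, 13.51, 13.62 and 13.63 in IgG metastatic and 13.55, 13.58 and 13.53 in IgG healthy arrays. The groups overlapped, with a change of 0.03 (95% interval -0.17 to 0.23). Other probe sets of Cxcl12 gave 0.09 (adjusted p = 0.707 over all probe sets) and 0.41 (0.0954). In the dimmer of these, IgG metastatic arrays (10.23 to 10.25) lay above healthy ones (9.71 to 10.01). The other 5 chemokines of this class changed by -0.47 to -0.03 and were not called. For Cxcl14, named here after its values were seen, the probe set in use gave -0.26, but the other gave -0.59 (adjusted p = 0.0491 over all probe sets). Probe sets shared by several genes were not tested. That of Ccl21a and its relatives had 12.39, 12.84 and 13.21 in DC101 metastatic and 13.09, 12.98 and 12.87 in IgG metastatic arrays. Its IgG healthy arrays, at 12.00, 11.96 and 11.29, lay below all of these. In IgG metastatic arrays the shared probe set of Ccl19 was also above all healthy arrays, and those of Ccl27a were below them.

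Cx3cl1, or fractalkine, is held on the endothelial membrane, where it captures monocytes, and was the gene of the list that fell. Cx3cl1 had values of 11.63, 11.79 and 11.46 in DC101 metastatic, 11.44, 11.61 and 11.58 in IgG metastatic and 12.49, 12.45 and 12.52 in IgG healthy arrays. The healthy arrays lay close together and above all 6 metastatic ones. In IgG metastatic lungs the gene fell by 0.94 on the log2 scale (SE 0.09, 1.92-fold lower, adjusted p = 0.00217), and no left-out array ended this call (highest adjusted p = 0.0156). A further probe set of the gene fell by 0.69 (adjusted p = 0.00919 over all probe sets), while its dimmest probe set had a change of -0.01. With the mean of its 4 probe sets the change of Cx3cl1 was -0.53 (adjusted p = 0.0354). Cxcl16, the other membrane-anchored chemokine, had 12.19, 12.35 and 12.94 in DC101 metastatic, 12.48, 12.50 and 12.63 in IgG metastatic and 12.93, 12.54 and 13.00 in IgG healthy arrays. Its groups overlapped and its change of -0.29 (95% interval -0.61 to 0.04) was not called. The proteases that shed both proteins, Adam10 (0.36, adjusted p = 0.0961) and Adam17 (-0.04, adjusted p = 0.826), were not called. The receptor gene Cx3cr1, typical of monocytes, ran from 7.48 to 8.57 in DC101 metastatic, from 7.68 to 7.92 in IgG metastatic and from 7.59 to 7.82 in IgG healthy arrays, with a change of 0.09 in IgG metastatic over healthy lungs (95% interval -0.16 to 0.35).

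Of the 16 inflammatory CC and XC chemokines, Ccl5 alone was called. Ccl5, a ligand that attracts T cells and monocytes, had values of 8.33, 7.62 and 7.69 in DC101 metastatic, 8.40, 8.59 and 8.70 in IgG metastatic and 7.40, 7.26 and 7.48 in IgG healthy arrays. The 3 groups did not overlap, with DC101 arrays between the others. The change of IgG metastatic over healthy was 1.18 (SE 0.11, 2.27-fold, adjusted p = 0.00234), and it stayed called with any array left out (highest adjusted p = 0.0159). Ccl2, the main attractant of monocytes, had 8.44, 8.34 and 8.65 in DC101 metastatic, 8.46, 8.55 and 8.44 in IgG metastatic and 8.16, 8.23 and 8.61 in IgG healthy arrays. Its groups overlapped, and the change was 0.15 (95% interval -0.16 to 0.47). Ccl3, a macrophage chemokine that the study lists in GSP58, had 7.49, 7.11 and 7.25 in DC101 metastatic, 7.40, 7.31 and 7.24 in IgG metastatic and 7.84, 7.25 and 7.21 in IgG healthy arrays, again with overlap (change -0.12, 95% interval -0.53 to 0.29). The class as a whole ran from -0.35 to 1.18 with a median of -0.05.

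Markers of macrophages and monocytes were measured beside these chemokines, since such cells also express several of them. Of 13 measured markers 4 were called higher in IgG metastatic lungs, the complement genes C1qa, C1qb and C1qc and the mannose receptor gene Mrc1, and 0 were called lower. The mean log2 level of the list was 8.50 to 8.95 in DC101 metastatic, 8.86 to 8.89 in IgG metastatic and 8.47 to 8.61 in IgG healthy arrays. Csf1r, the receptor that defines the lineage, had a change of -0.10 (adjusted p = 0.922), and Ccr2, the receptor of Ccl2 on monocytes, had values of 7.19, 7.42 and 7.12 in DC101 metastatic, 7.17, 7.13 and 7.14 in IgG metastatic and 6.71, 7.22 and 7.22 in IgG healthy arrays (change 0.10, 95% interval -0.26 to 0.45). The neutrophil list of 8 genes had 0 called genes by limma, with 3 at an unadjusted p under 0.05 in IgG metastatic over healthy lungs, and its mean log2 level was 7.64 to 8.01 in DC101 metastatic, 7.84 to 8.20 in IgG metastatic and 7.50 to 7.81 in IgG healthy arrays. Of 11 fibroblast and mural genes, the collagen genes Col1a1 (1.85, adjusted p = 0.00761), Col1a2 (1.29, adjusted p = 0.0234) and Col3a1 (0.87, adjusted p = 0.0367) were called higher in IgG metastatic over healthy lungs, and Dcn (-1.05, adjusted p = 0.0466) and Myh11 (-1.14, adjusted p = 0.031) lower. The same 3 collagen genes were called higher in DC101 metastatic over healthy lungs, by 1.04 to 2.03. The mean log2 level of the list was 10.49 to 10.70 in DC101 metastatic, 10.18 to 10.66 in IgG metastatic and 10.21 to 10.44 in IgG healthy arrays. Col3a1, the highest gene of this list, had 13.25 to 13.43, 12.83 to 13.47 and 12.21 to 12.53 in the same order of groups. Lyz2, the highest of the macrophage and monocyte markers, had 12.01 to 12.57, 11.80 to 12.15 and 12.11 to 12.62. The part of these cells in the changes of Ccl5, Cxcl1, Cxcl9, Cxcl10 and Cxcl13 was not tested.

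Among the 16 conventional receptors, Cxcr4 was the gene that rose in IgG metastatic lungs. Cxcr4, the receptor of Cxcl12 and a gene of sprouting tip cells in the endothelium, had values of 11.31, 12.61 and 12.65 in DC101 metastatic, 12.65, 12.90 and 12.91 in IgG metastatic and 12.23, 12.24 and 11.95 in IgG healthy arrays. IgG metastatic arrays were above all healthy ones, while DC101 replicate 1 was the lowest of all 9 arrays. The change of IgG metastatic over healthy was 0.68 (SE 0.12, 1.6-fold, adjusted p = 0.0237). The call was lost without IgG metastatic replicate 2 (adjusted p = 0.0778) or 3 (0.0811), without IgG healthy replicate 1 (0.0611), 2 (0.053) or 3 (0.0595), without moderation of the variances (0.0986) and in a fit of all 9 arrays, where the DC101 spread enters (0.274). With the replicate number as a block Cxcr4 was not called either. The 9 CC receptors, most of them receptors of leukocytes, changed by -0.40 to 0.23, and 0 were called by limma (lowest adjusted p = 0.234, 1 gene at an unadjusted p under 0.05). All of them lay below the median level of all genes. Genes downstream of the receptors were described from a list of 23 measured genes, of which Gnai1, a G protein subunit (0.88, adjusted p = 0.0078), and Rgs16, which ends G protein signals (1.23, adjusted p = 0.0055), rose and 0 fell.

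Ackr1, the chemokine-binding receptor of venules that was first known from red blood cells, rose strongly. It had values of 10.61, 10.76 and 11.03 in DC101 metastatic, 10.63, 11.04 and 10.82 in IgG metastatic and 9.17, 9.34 and 8.84 in IgG healthy arrays. All metastatic arrays lay above all healthy arrays with a wide gap. The change of IgG metastatic over healthy was 1.71 (SE 0.16, 3.28-fold, adjusted p = 0.00219), and no left-out array ended the call (highest adjusted p = 0.0156). Of 6 venous markers, Nr2f2, a regulator of vein identity (0.66, adjusted p = 0.0289), and Selp, which encodes the adhesion receptor P-selectin (1.06, adjusted p = 0.0208), were called higher, and Slc6a2, a noradrenaline transporter (-0.60), was called lower. The mean log2 level of these 6 genes was 12.27 to 12.38 in DC101 metastatic, 12.12 to 12.32 in IgG metastatic and 11.93 to 12.18 in IgG healthy arrays. Their part in the rise of Ackr1 was not tested.

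The other atypical receptors were not called. Ackr3, which removes Cxcl12, had values of 13.39, 13.49 and 13.32 in DC101 metastatic, 13.24, 13.18 and 13.30 in IgG metastatic and 12.98, 13.01 and 13.07 in IgG healthy arrays. The 3 groups did not overlap, with DC101 arrays highest and healthy arrays lowest, but the change of 0.22 in IgG metastatic over healthy lungs (95% interval 0.02 to 0.42, adjusted p = 0.196) did not pass. With a prior variance that depends on the level it did (adjusted p = 0.0248). Ackr2, a scavenger of inflammatory CC chemokines in lymphatic endothelium, had 13.00, 12.82 and 12.86 in DC101 metastatic, 12.95, 12.82 and 13.05 in IgG metastatic and 12.87, 12.81 and 12.99 in IgG healthy arrays, with overlap of all groups (change 0.05, 95% interval -0.19 to 0.29). Ackr4, a scavenger of homeostatic CC chemokines, had 13.01, 13.05 and 12.65 in DC101 metastatic, 13.10, 12.96 and 12.96 in IgG metastatic and 12.76, 12.95 and 12.32 in IgG healthy arrays. Its change of 0.33 (SE 0.17, adjusted p = 0.307) had no settled direction, because its 3 probe sets gave 0.33, 0.40 and -1.16. Among lymphatic markers 3 of 6 were called higher, and their mean log2 level was 10.72 to 11.27 in DC101 metastatic, 11.09 to 11.23 in IgG metastatic and 9.64 to 10.26 in IgG healthy arrays.

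**Figure D3:**
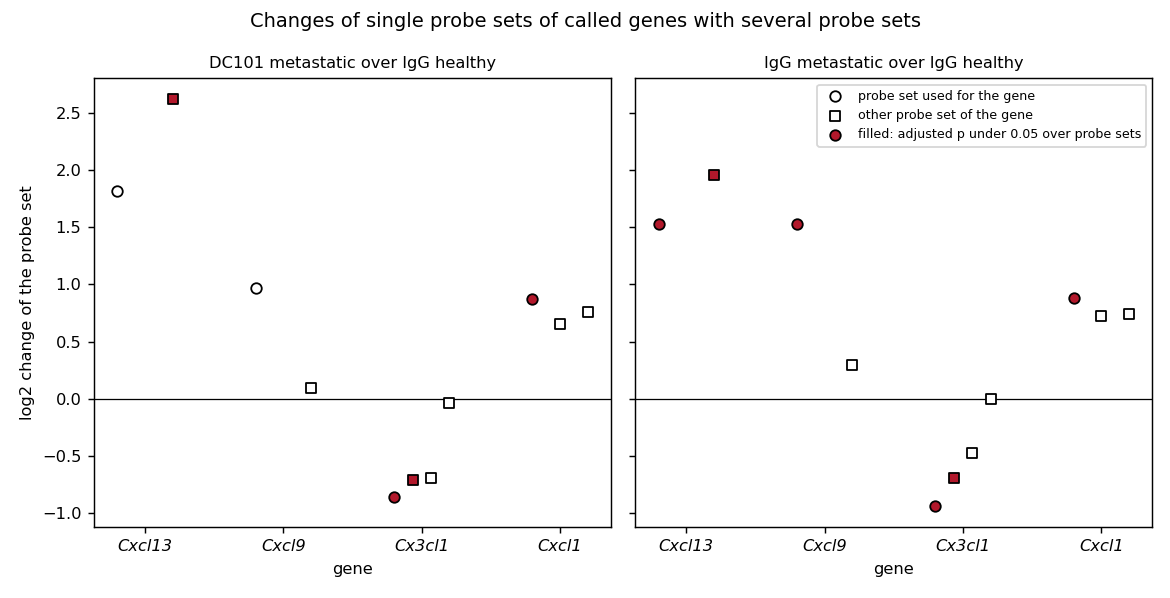
Log2 changes (vertical axis) of single probe sets of the 4 called genes that have several, in DC101 metastatic (left) and IgG metastatic (right) over IgG healthy lungs, with circles for the probe set that stands for the gene, squares for the others and filled symbols where the adjusted p over all probe sets is under 0.05. Cxcl13 and Cxcl1 keep their direction in every probe set, while the dimmer probe sets of Cxcl9 and Cx3cl1 lie closer to 0.

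Other genes of chemokine biology carry names outside the standard scheme. Of 9 measured genes of this kind, 4 fell in IgG metastatic lungs and 0 rose. The platelet chemokine gene Pf4 had 8.94 to 9.51 in DC101 metastatic, 8.33 to 9.04 in IgG metastatic and 10.15 to 10.46 in IgG healthy arrays, and it fell by 1.59 in IgG metastatic over healthy lungs (adjusted p = 0.00512). Ppbp, another platelet chemokine gene, had 8.20 to 9.12 in DC101 metastatic, 7.98 to 8.55 in IgG metastatic and 9.68 to 10.09 in IgG healthy arrays, and it fell by 1.65 (adjusted p = 0.00333). The platelet list, with 2 of 6 genes called lower, had a mean log2 level of 8.29 to 8.47 in DC101 metastatic, 7.90 to 8.24 in IgG metastatic and 8.81 to 8.96 in IgG healthy arrays, and its part in these changes was not tested. Cmklr1, a receptor of chemerin, fell by 1.48 (adjusted p = 0.00557), and Ccrl2, a surface protein that presents chemerin, fell by 0.69 (adjusted p = 0.00996). Of 21 measured genes that cleave, sulphate or present chemokines, Mmp14, a membrane metalloprotease (0.88, adjusted p = 0.00598), and Sdc4, a heparan sulphate proteoglycan (0.48, adjusted p = 0.0207), rose. In the same list Dpp4, a protease that inactivates Cxcl10 and other chemokines (-0.52, adjusted p = 0.026), and the heparan sulphate enzymes Glce (-0.76, adjusted p = 0.0146) and Hs3st1 (-0.60, adjusted p = 0.0456) fell.

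Genes of the interferon and NF-kB pathways were described beside the ligands, and their part in the changes was not tested. Of 18 measured interferon signalling genes 2 rose in IgG metastatic lungs, Irf7, a transcription factor of the interferon response (1.95, adjusted p = 0.000473), and Usp18, a feedback inhibitor of interferon receptors (2.07, adjusted p = 0.000215). Irf1, which acts downstream of interferon gamma, fell by 0.48 on the log2 scale (adjusted p = 0.0189), with 13.36 to 13.44 in DC101 metastatic, 13.40 to 13.48 in IgG metastatic and 13.87 to 13.95 in IgG healthy arrays. The interferon genes Ifng (6.34 to 6.48) and Ifnb1 (6.80 to 7.09) stayed near the low end of the scale in all 9 arrays. These values are of sorted ECs and do not show whether other cells of the lung made interferon. Of 23 measured genes of NF-kB signalling and its cytokines 3 rose, Selp, Bcl3, a nuclear IkB protein (0.92, adjusted p = 0.00401), and Relb, an NF-kB subunit (0.72, adjusted p = 0.0244), and 0 fell. The median changes of the interferon and NF-kB lists were 0.04 and 0.14, against -0.02 over all genes. In DC101 metastatic over healthy lungs Irf7 (1.85, adjusted p = 0.000884) and Usp18 (1.89, adjusted p = 0.00192) were again called higher and Irf1 lower (-0.52, adjusted p = 0.0386), and 0 genes of the NF-kB list were called by limma (lowest adjusted p = 0.0662, 8 genes at an unadjusted p under 0.05).

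The comparison of DC101 with IgG in metastatic lungs asked which of these genes respond to the blockade of VEGFR2. For this experiment the study chose mice whose metastatic load, judged by bioluminescence, was similar. The comparison therefore does not cover mice that differed in load. Under DC101 the study reported repression of VEGF target genes and of proliferation and angiogenesis signatures. It found no significant effect on its inflammation signature or GSP58. Such signatures pool many genes, whereas the calls here are of single genes. By limma 0 of the 53 genes were called, as were 0% of all 18193 genes in the higher and 0% in the lower direction (lowest adjusted p = 0.403), with 3 of the 53 and 1209 of all genes at an unadjusted p under 0.05. None of the pathway and marker lists had a called gene in this comparison, with 0 to 3 genes a list at an unadjusted p under 0.05. The groups were fully apart for 5 of the 53 genes in the higher direction and for 1 in the lower, where 5.40% and 6.95% of all genes were. Changes of the 53 genes ran from -0.68 to 0.42 with a median of -0.0017, against -0.0195 over all genes. The median half-width of their 95% intervals, which are not adjusted over genes, was 0.36. For a typical gene a smaller change could not be told from 0 even before adjustment. Larger changes were also not called, such as that of Ccl5 at -0.68 (adjusted p = 0.737). The 4 genes with the largest decreases, Ccl5, Cxcr4, Cxcl9 and Cxcl10, had been called higher in IgG metastatic over healthy lungs, and both comparisons share the IgG metastatic arrays.

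Ccl5 had the lowest p of the 53 genes under DC101. With the values given above, its DC101 arrays lay below its IgG metastatic arrays, with a change of -0.68 (95% interval -1.15 to -0.21, unadjusted p = 0.0108, adjusted p = 0.737). Cxcl9 and Cxcl10 overlapped between DC101 and IgG metastatic arrays. The change of Cxcl9 was -0.56 (95% interval -1.22 to 0.10, adjusted p = 0.762). It was -0.22 without DC101 replicate 3 and -0.79 without DC101 replicate 2. That of Cxcl10 was -0.52 (95% interval -1.16 to 0.11, adjusted p = 0.764), with -0.27 without DC101 replicate 1 and -0.82 without DC101 replicate 2. For Cxcr4 the change of -0.63 (95% interval -1.42 to 0.17, adjusted p = 0.765) rested on DC101 replicate 1, without which it was -0.19. The lowest DC101 array was replicate 3 for Cxcl9, replicate 1 for Cxcl10 and Cxcr4, and replicate 2 for Ccl5.

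Ackr1, Cxcl1, Cx3cl1 and Cxcl13 had smaller differences between DC101 and IgG in metastatic lungs. Ackr1 changed by -0.03 (95% interval -0.39 to 0.33), Cxcl1 by -0.02 (-0.45 to 0.42) and Cx3cl1 by 0.08 (-0.20 to 0.37). Cxcl13 changed by 0.29 with a wide interval (-0.53 to 1.10), and its DC101 replicate 3 lay above the other arrays. None of these intervals shows that DC101 left a gene unaffected. The other genes at an unadjusted p under 0.05, named here after their values were seen, were Ccl28, a mucosal chemokine (0.37, unadjusted p = 0.0128, adjusted p = 0.741), and Cxcr5, the receptor of Cxcl13 (0.39, unadjusted p = 0.0221, adjusted p = 0.741).

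**Figure D4:**
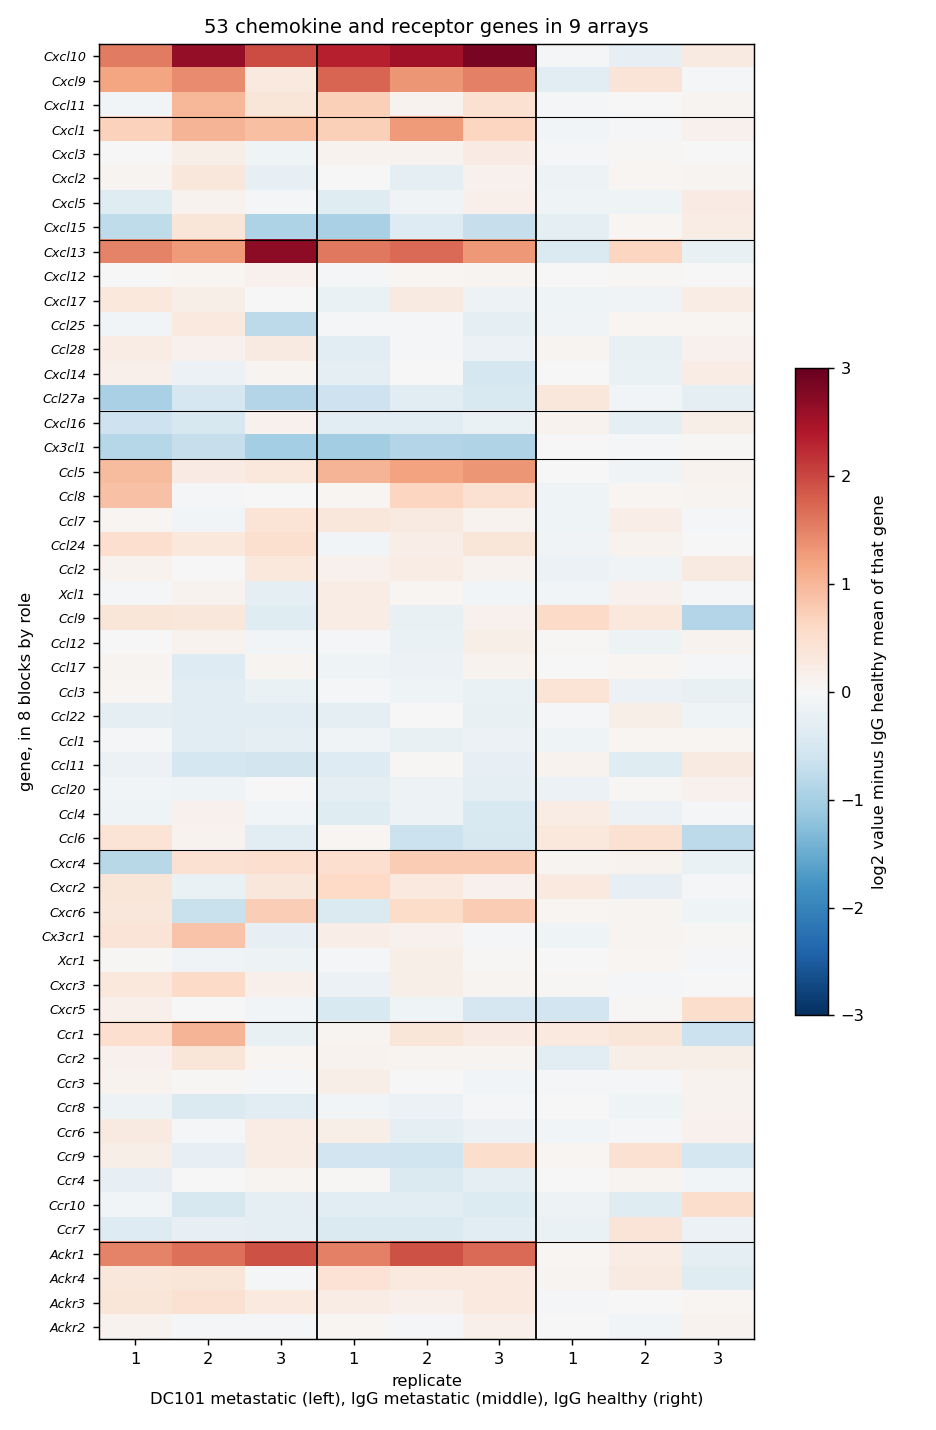
Log2 value minus the IgG healthy mean of the same gene (colour, red above and blue below 0) for the 53 genes (rows, in 8 blocks by role) in the 3 arrays each of DC101 metastatic, IgG metastatic and IgG healthy lungs (columns). Cxcl10, Cxcl13 and Ackr1 are red in all 6 metastatic arrays and Cx3cl1 is blue in all of them, and the pale rows are most of the 45 genes not called between IgG metastatic and IgG healthy lungs.

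Set against healthy lungs, DC101 metastatic lungs had 3 genes higher and 1 lower. Ackr1 rose by a log2 change of 1.69 (SE 0.17, 3.22-fold, adjusted p = 0.00482), Cxcl10 by 2.05 (SE 0.27, 4.14-fold, adjusted p = 0.0149) and Cxcl1 by 0.87 (SE 0.13, 1.83-fold, adjusted p = 0.0197), while Cx3cl1 fell by 0.86 (SE 0.12, 1.81-fold lower, adjusted p = 0.0155). Over all genes 1.58% were called higher and 0.835% lower. The groups were fully apart for 8 of the 53 genes in the higher direction and 5 in the lower, where 9.44% and 13.6% of all genes were. The median change of the 53 genes was 0.05, against -0.04 over all genes. These 4 genes were also called in the same direction in IgG metastatic lungs, which were set against the same healthy arrays. Without IgG healthy replicate 1 or 2 the count of higher genes was 1, with Cxcl10 at adjusted p-values of 0.0757 and 0.0569 and Cxcl1 at 0.0889 and 0.0781, and Cxcl1 was also lost without DC101 replicate 2 (0.06) or 3 (0.0503) and after removal of cross-hybridising probe set types (0.0525). Cx3cl1 was lost, leaving 0 lower genes, without DC101 replicate 1 (0.0538) or IgG healthy replicate 1 (0.0784), 2 (0.06) or 3 (0.0638). Without moderation of the variances 0 of the 4 genes passed, with adjusted p-values of 0.104 for Ackr1 and Cx3cl1, 0.126 for Cxcl1 and 0.16 for Cxcl10, in a fit that called 11 higher and 3 lower among all genes.

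The 4 remaining genes that rose in IgG metastatic lungs did not pass in DC101 metastatic lungs. The change of DC101 metastatic over healthy was 1.82 for Cxcl13 (SE 0.41, adjusted p = 0.0794), the largest of any gene of the list that was not called, and its other probe set gave 2.62 (adjusted p = 0.011 over all probe sets). Cxcl13 was called in a fit of all 9 arrays (adjusted p = 0.0317), with a level-dependent prior variance (0.0429) and with the mean of its probe sets (0.0152). Cxcl9 had a change of 0.97 (SE 0.31, adjusted p = 0.175) and Ccl5 one of 0.50 (SE 0.20, adjusted p = 0.261). Cxcr4 had a change of 0.05 (SE 0.34, adjusted p = 0.963), which was 0.49 without DC101 replicate 1. A call in IgG and none in DC101 metastatic lungs does not show a difference between them, and the direct comparison above, with 0 calls, is the test of it. Ackr3 had a change of 0.38 (SE 0.10, adjusted p = 0.12), called with a level-dependent prior variance (0.0179). Cxcr3 had a change of 0.35 (95% interval 0.04 to 0.66, adjusted p = 0.234).

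The called genes lie on chromosomes 1, 5, 8 and 11. In the RefSeq annotation of GRCm38.p6, 14 of the 53 genes are on chromosome 11, 12 on chromosome 9 and 10 on chromosome 5, where many CXC ligands lie. Cxcl3, Cxcl15, Cxcl1 and Cxcl2 are neighbouring genes of chromosome 5, and of these Cxcl1 alone was called. Cxcl9, Cxcl10 and Cxcl13 lie on the same chromosome. Cx3cl1 lies on chromosome 8 between Ccl22 and Ccl17, ligands of the receptor Ccr4 that are named here as its neighbours. They were not called, with changes of -0.17 for Ccl22 and -0.07 for Ccl17 in IgG metastatic over healthy lungs.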

How the data were processed

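RNA of sorted lung ECs was hybridised to an Affymetrix mouse 3-prime array, 1 array a sample. The authors normalised the raw arrays by RMA in Chipster and deposited the log2 values used here. The log base is not stated and was taken as log2, which RMA returns. RMA equalises the arrays, so changes are relative to the other genes, and precision is limited by having 3 arrays a group.

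Of 45101 probe sets, 64 control probe sets were left out, 34945 carried 1 gene symbol in the platform annotation, 932 carried several and 9160 were unnamed here. By gene ID 34741 of the 34945 matched RefSeq. Each of 18193 genes was represented by 1 probe set, that of the highest mean level. The 53 genes had 85 probe sets, and 4 further probe sets shared with other genes were not tested. Each comparison was fitted in its 6 arrays with limma 3.58.1 (R 4.3.3) by lmFit and eBayes. The empirical Bayes test and the Benjamini-Hochberg adjustment follow the study's methods, and the adjustment ran over all genes. The call at 0.05 was set here. The procedure was checked on simulated data.

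The genes with values in the text are those called in any comparison and a list of well-known members, and others are named as such. The list of well-known members and the marker and pathway lists were chosen with earlier results of these data known. That list of members includes every called gene. The 53 genes themselves follow from their symbols alone. Alternatives were all 9 arrays in 1 fit, the replicate number as a block, a level-dependent prior variance, no moderation, array weights, the mean of all probe sets, the removal of probe set types that can cross-hybridise, a restriction to genes above the median level and each array left out. Promoters were read from a RefSeq table and searched for 4 motifs on both strands.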

Additional observations from a re-analysis of the deposited data

How the results depend on the processing

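In IgG metastatic over IgG healthy lungs the 7 genes called higher became 3 without variance moderation, 4 among genes above the median level only and 4 to 6 with 1 array left out. The 1 gene called lower became 2 with the mean of all probe sets and among genes above the median level, and stayed at 1 with 1 array left out. In DC101 metastatic over IgG healthy lungs the 3 genes called higher became 5 with a level-dependent prior variance, 0 without moderation and 1 to 3 with 1 array left out. The 1 gene called lower became 2 with all 9 arrays in 1 fit, 0 without moderation and 0 to 1 with 1 array left out. DC101 over IgG metastatic lungs had 0 calls in every setting. Leaving out an array leaves fewer samples. The restriction to genes above the median level leaves out Ccl5, Cxcl9 and Cxcl13 by construction, and the other 4 genes, Cxcl10, Ackr1, Cxcl1 and Cxcr4, stayed called in it. The cause of the other shifts was not tested.

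Over all genes, calls between IgG metastatic and healthy lungs were 715 higher and 473 lower, against 232 and 144 without moderation. The replicate block gave 464 and 225 there, and 203 and 44 in DC101 metastatic over healthy lungs, where 288 and 152 were called without it. With the replicate block the counts of the 53 genes were 5 higher and 1 lower in IgG metastatic over healthy lungs and 3 higher and 0 lower in DC101 metastatic over healthy lungs, with Cxcl1 (adjusted p = 0.0676) and Cxcr4 (0.0697) not called between IgG metastatic and healthy lungs and Cx3cl1 (0.0515) not called between DC101 metastatic and healthy lungs. Arrays of the same number correlated in their deviations by -0.0543 to 0.0845, and arrays of different numbers by -0.1397 to 0.0985. The labels do not state whether the numbers pair the samples. Such correlations, from 3 arrays a group, cannot exclude a pairing.

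Signs turned only for changes that were not called. With the mean of all probe sets, IgG metastatic over healthy lungs gave -0.14 for Ackr4 and -0.027 for Ccr2, DC101 over IgG metastatic lungs gave -0.045 for Cx3cl1 and -0.13 for Cxcl12, and DC101 metastatic over healthy lungs gave -0.40 for Ackr4. With array weights Ccl3 gave 0.013 in DC101 over IgG metastatic lungs and Cxcr4 gave -0.21 in DC101 metastatic over healthy lungs. With 1 array left out, IgG metastatic over healthy lungs ran from -0.0014 to 0.11 for Ackr2, -0.23 to 0.083 for Ccl3, -0.075 to 0.18 for Ccr2, -0.15 to 0.059 for Cxcl2 and -0.042 to 0.13 for Cxcr3. DC101 over IgG metastatic lungs ran from -0.14 to 0.075 for Ackr1, -0.11 to 0.0039 for Ackr2, -0.18 to 0.020 for Ackr4, -0.096 to 0.060 for Ccl2, -0.14 to 0.050 for Ccl3, -0.017 to 0.53 for Cx3cr1 and -0.13 to 0.18 for Cxcl1. It ran from -0.28 to 0.25 for Cxcl11, -0.0085 to 0.060 for Cxcl12, -0.15 to 0.56 for Cxcl13, -0.27 to 0.11 for Cxcl16 and -0.027 to 0.27 for Cxcl2. DC101 metastatic over healthy lungs ran from -0.051 to 0.054 for Ackr2, -0.27 to 0.049 for Ccl3, -0.084 to 0.22 for Cxcl2 and -0.18 to 0.49 for Cxcr4.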
